A study of Mus musculus with 30 samples.

Results

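The genes described here are 39 mouse genes of central carbon metabolism, taken from a count table of 54532 Ensembl genes by matching its identifiers to a list of symbols. They comprise 20 genes of glycolysis with glucose uptake and lactate export, 4 genes of the pentose phosphate pathway, and 15 genes of pyruvate entry and the tricarboxylic acid (TCA) cycle. All 39 were present and all 39 passed the filter on low counts, as did 12393 genes in all. The symbol Aldoa also belonged to a second identifier, which had 0 counts in every library, so the first was used.

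RNA was sequenced from bone marrow cells of wild-type mice (WT) and of mice deficient in Nlrx1 (KO), whose product belongs to the NOD-like receptors and is found at mitochondria. Cells of both genotypes had been kept for 6 days in GM-CSF, a cytokine under which myeloid precursors become dendritic cells. The 0 h groups had not met the fungus, and the others were taken 3, 6, 9 and 12 h after addition of viable conidia, the airborne spores, of the mould Aspergillus fumigatus (AF29), with 3 libraries in each of 10 groups. No group was cultured over the same hours without the fungus, so time in culture and the fungus cannot be told apart. The labels give no age or sex of the animals and do not name the allele behind the deficiency. Whether the 3 libraries of each group stand for different animals or cultures is not in the labels, so the p-values cover the spread among these libraries alone, and that spread may be technical.

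Glycolysis splits glucose into pyruvate in the cytosol and yields ATP and NADH quickly, and lactate dehydrogenase returns NADH to NAD+ when pyruvate is not burnt in mitochondria. The pentose phosphate pathway branches off at glucose 6-phosphate and supplies NADPH, which feeds the phagocyte NADPH oxidase and glutathione, and ribose for nucleotides. Pyruvate enters mitochondria for the TCA cycle, whose intermediates activated myeloid cells also divert: citrate to lipids, and cis-aconitate to itaconate by the enzyme encoded by Acod1. Activated dendritic cells are known for a shift towards glycolysis.

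The libraries held 1722384 to 3509429 counts (median 2492886). Levels are CPM, counts scaled to library size with TMM factors, as mean ± SD with n = 3, and log2 changes carry the fitted standard error. A change was called when edgeR's quasi-likelihood p, adjusted by Benjamini-Hochberg over all 12393 genes tested, was under 0.05. Nlrx1, the targeted gene, had 7.62 to 11.8 CPM in the WT group means and 1.94 to 3.28 CPM in the KO group means, and was lower in KO on average over the times (-1.87 ± 0.28, adjusted p = 1.71e-05). Of the markers that define the labelled cell type, Itgax, Cd74 and H2-Ab1 had counts in every library, while Flt3 and Cd209a were at 0 in 17 and 23 of 30 libraries. Markers of B cells, T and NK cells and erythroid cells were at or near 0, the largest sum in any library being 6 CPM.

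Several measures of the libraries moved with genotype or time. Small RNA genes took 5.48 to 6.80% of counts in the WT libraries from 0 to 9 h, but 3.82 to 4.01% in WT at 12 h and 3.07 to 4.28% in all KO libraries. All 10 macrophage markers passed the filter, and their summed level was 2997 to 3138 CPM in WT at 0 h, 2103 to 2183 in WT at 12 h, 2120 to 2370 in KO at 0 h and 1614 to 1820 in KO at 12 h. Of 11 neutrophil markers 7 passed, with sums of 378 to 416 CPM in WT and 221 to 271 in KO at 0 h, 642 to 981 and 542 to 547 at 6 h, and 406 to 472 and 192 to 211 at 12 h. At 6 h 4 of those 7 markers were called higher in each genotype, beside 3.29% of all genes in WT and 3.21% in KO. Of 9 genes listed as dendritic cell markers, Itgam among them, 7 passed. Their sums were 3671 to 4233 CPM in WT and 4059 to 4523 in KO at 0 h, and 2810 to 3345 and 3839 to 4015 at 12 h. In WT at 12 h 4 of the 7 were called lower and 1 higher, beside 8.47% and 9.64% of all genes. The part of these measures of the libraries in the results on the metabolic genes was not tested. In bulk RNA, fewer cells of a type and less RNA per cell cannot be told apart.

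Glycolysis genes did not move as a block after the conidia were added. At 12 h against 0 h in WT, 4 of 20 rose (Hk1, Hk2, Hk3 and Pfkfb3) and 3 fell (Gpi1, Pgk1 and Eno1), with a median log2 change of -0.09 beside 0.00 over all genes tested. In KO 6 of 20 rose (Slc2a1, Hk1, Hk2, Hk3, Pfkfb3 and Pgam1) and 2 fell (Gapdh and Eno1), with a median of 0.08 beside -0.01. Over all 39 members, 5 rose and 10 fell in WT at 12 h, and 8 rose and 10 fell in KO. Among all genes tested, 9.64% were called higher and 8.47% lower in WT at that time, and 8.13% and 6.58% in KO. The share of counts in small RNA genes, lower in WT at 12 h than at the earlier times, was also fitted as a covariate. With it, 2 members were called in WT at 12 h (Pfkfb3 and Acod1) and 17 in KO. From 9 to 12 h in WT 2 were called (Pgd and G6pdx). The share of all genes called in the fits with this covariate is not given here.

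**Figure D1:**
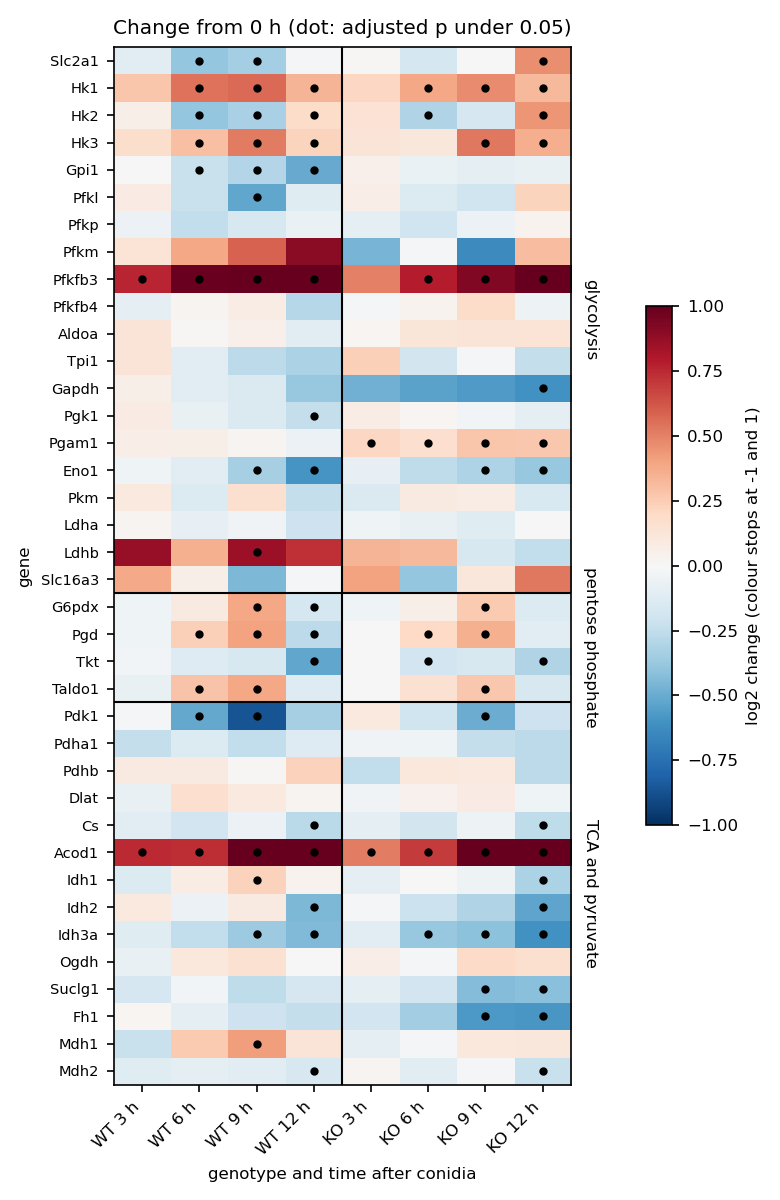
Fitted log2 change from 0 h for 38 of the 39 genes (rows) at each later time in WT and KO (columns). Colour stops at -1 and 1, a dot marks an adjusted p under 0.05, and Pcx is left out because some of its groups had no count. Acod1, Pfkfb3 and Hk1 are positive with dots at 6, 9 and 12 h in both genotypes, while 3 of the 4 pentose phosphate genes are positive at 9 h and negative at 12 h.

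The number of called members against 0 h was 2, 10, 18 and 15 in WT at 3, 6, 9 and 12 h, and 2, 9, 14 and 18 in KO. At 3 h, 2 members were higher in WT (Pfkfb3 and Acod1) and 2 in KO (Pgam1 and Acod1) by edgeR. Of the members with a negative change, 2 in WT and 1 in KO had an unadjusted p under 0.05, and 0 in each were called by edgeR or DESeq2. The background at 3 h was 0.880% higher and 0.137% lower in WT, and 1.03% and 0.186% in KO. At 6 h 6 members were higher and 4 lower in WT, against a background of 3.29% and 2.67%, and 6 were higher and 3 lower in KO, against 3.21% and 2.70%. At 9 h 11 were higher and 7 lower in WT, where the background was 5.57% and 4.81%, and 9 were higher and 5 lower in KO, where it was 5.86% and 5.00%. From 9 to 12 h 5 rose and 9 fell in WT, with 5.16% and 5.37% of all genes, and 5 rose and 5 fell in KO, with 2.65% and 1.84%.

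Slc2a1, Hk2 and Pfkfb3 stand at control points of glycolysis. Slc2a1 encodes the glucose transporter GLUT1, Hk2 the hexokinase that traps glucose in the cell, and Pfkfb3 the enzyme that makes fructose 2,6-bisphosphate, the activator of phosphofructokinase. The 250 bases before their RefSeq start sites (GRCm38.p6) are shown because these genes had clear courses over time and hold the letters searched. Capitals mark ACGTG or GCGTG on either strand, the core letters of the hypoxia response element, and both can overlap the E-box CACGTG. Pfkfb3 has a pair of annotated start sites. In GENCODE M21 on GRCm38, Slc2a1 (ENSMUSG00000028645) spans chr4:119108711-119137983, Hk2 (ENSMUSG00000000628) chr6:82725025-82774454 and Pfkfb3 (ENSMUSG00000026773) chr2:11471433-11554077.
Slc2a1, chr4:119108495-119108744, plus strand: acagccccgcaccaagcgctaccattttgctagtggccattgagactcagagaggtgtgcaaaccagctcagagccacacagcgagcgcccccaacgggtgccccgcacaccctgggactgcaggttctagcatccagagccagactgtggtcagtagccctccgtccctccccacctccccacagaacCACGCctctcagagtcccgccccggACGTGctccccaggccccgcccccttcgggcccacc
Hk2, chr6:82774455-82774704, minus strand: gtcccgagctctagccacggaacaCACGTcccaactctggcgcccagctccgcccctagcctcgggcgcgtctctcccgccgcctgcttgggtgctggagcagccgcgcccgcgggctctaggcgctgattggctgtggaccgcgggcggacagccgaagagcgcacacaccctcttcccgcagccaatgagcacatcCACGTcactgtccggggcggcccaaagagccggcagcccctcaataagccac
Pfkfb3, first start, chr2:11553930-11554179, minus strand: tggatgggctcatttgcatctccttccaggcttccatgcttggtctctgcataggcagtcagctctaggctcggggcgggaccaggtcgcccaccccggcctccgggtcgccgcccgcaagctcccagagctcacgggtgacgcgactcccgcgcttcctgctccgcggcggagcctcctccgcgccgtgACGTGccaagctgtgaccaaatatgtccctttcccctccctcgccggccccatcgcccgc
Pfkfb3, second start, chr2:11502091-11502340, minus strand: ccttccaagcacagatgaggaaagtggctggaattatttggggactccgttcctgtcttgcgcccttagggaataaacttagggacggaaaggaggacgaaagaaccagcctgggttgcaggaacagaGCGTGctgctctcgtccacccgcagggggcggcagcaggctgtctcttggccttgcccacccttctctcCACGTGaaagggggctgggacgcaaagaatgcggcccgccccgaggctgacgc

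Each of these windows holds at least 1 such core, and the second Pfkfb3 window holds the palindrome CACGTG, which counts on both strands. Over the 38 members with a RefSeq entry, ACGTG was found before at least 1 start site of 16 genes (42.1%), and in 18.5% of all genes with an entry. Among the 20 glycolysis genes it was found for 11 (55.0%), and among the 4 pentose phosphate genes for 0. GCGTG was found for 25 of 38 members (65.8%), among them all 4 pentose phosphate genes, and for 30.9% of all genes, and CACGTG for 5 of 38 and 6.86%. These are matches of letters, and no binding was measured here. The comparison took all 27025 genes with an entry, whether or not they passed the count filter, and did not match base composition.

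Slc2a1 fell in mid-course in WT and ended above its 0 h level in KO. Its levels in the 3 WT libraries were 252, 248 and 266 CPM (0 h), 247, 238 and 225 (3 h), 213, 180 and 194 (6 h), 201, 193 and 211 (9 h) and 263, 238 and 260 (12 h). In KO they were 228, 234 and 231 CPM (0 h), 234, 234 and 230 (3 h), 200.3, 212 and 202 (6 h), 221, 243 and 231 (9 h) and 329.5, 316 and 309.6 (12 h). All 3 KO libraries at 12 h lay above every other library of the series. In WT the gene fell at 6 and 9 h by edgeR (-0.39 ± 0.06 with adjusted p = 4.16e-05, then -0.34 ± 0.06 with adjusted p = 0.000111), and rose from 9 to 12 h (0.33 ± 0.06, adjusted p = 0.000154). In KO it was above its 0 h level at 12 h (0.46 ± 0.06, adjusted p = 7.02e-07). With the small RNA covariate the WT rise from 9 to 12 h lost its call (adjusted p = 0.904), and so did that of Hk2 (adjusted p = 0.492, edgeR). The change from 0 h differed between genotypes over the course (edgeR F test of the interaction, adjusted p = 0.00908), by 0.47 at 12 h on the log2 scale.

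Hk2 also dipped and recovered. The WT libraries read 213, 209 and 225 CPM (0 h), 236, 219 and 219 (3 h), 164, 163 and 169 (6 h), 166, 167 and 184 (9 h) and 251, 247 and 236 (12 h). The KO libraries read 226, 229.7 and 195 CPM (0 h), 238.5, 242 and 239.8 (3 h), 183, 167 and 178 (6 h), 194, 205 and 180.1 (9 h) and 304, 303 and 279 (12 h). The 6 h libraries lay below those of 0 h in both genotypes, and the 12 h libraries above them. Hk2 fell at 6 h in WT (-0.38 ± 0.06) and KO (-0.30 ± 0.06) and then rose from 9 to 12 h in WT (0.50 ± 0.06) and KO (0.61 ± 0.06), with edgeR adjusted p-values of 0.000163, 0.00256, 1.29e-06 and 6.98e-08. The WT rise at 12 h against 0 h was small (0.18 ± 0.06, adjusted p = 0.0371) and lost its call in 4 of 6 fits that left out 1 library.

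Pfkfb3 had the largest rise of the glycolysis genes that passed the test in both genotypes at 12 h. The WT libraries read 27.5, 29.4 and 22.8 CPM (0 h), 44.1, 40.0 and 50.9 (3 h), 51.4, 52.1 and 54.9 (6 h), 47.6, 56.1 and 55.3 (9 h) and 68.6, 61.6 and 63.5 (12 h). The KO libraries read 22.5, 26.6 and 27.4 CPM (0 h), 31.8, 45.1 and 31.6 (3 h), 50.8, 43.1 and 39.3 (6 h), 57.1, 49.6 and 38.4 (9 h) and 64.1, 70.2 and 71.4 (12 h). No library at a later time overlapped those of 0 h in either genotype. The log2 change at 12 h was 1.28 ± 0.14 in WT (adjusted p = 1.5e-07) and 1.42 ± 0.15 in KO (adjusted p = 3.84e-08, edgeR). Its relative Pfkfb4 was not called at any time, so that the share of Pfkfb3 in the sum of both, per kb of exon, went from 44.1% ± 8.34 to 70.1% ± 3.30 in WT and from 41.9% ± 3.06 to 66.6% ± 3.71 in KO.

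Among the hexokinases, Hk1, the widely expressed form, and Hk3, a form of myeloid cells, rose in WT at 6 and 9 h, where Hk2 fell. Hk1 had 74.6 ± 14.6 CPM in WT at 0 h and 110.5 ± 4.66 at 9 h (0.56 ± 0.10, adjusted p = 0.000395 by edgeR), and 73.6 ± 4.31 and 102 ± 13.4 CPM in KO (0.47 ± 0.10, adjusted p = 0.00276). Its calls at 12 h (0.34 ± 0.10 in WT and 0.32 ± 0.11 in KO) ended in 3 and 6 of 6 fits without 1 library. Hk3 read 182, 182 and 165 CPM in WT (0 h), 202, 206 and 190.3 (3 h), 207, 223 and 225 (6 h), 246, 244 and 269.7 (9 h) and 199, 206 and 215 (12 h). The KO libraries had 153, 166 and 159 CPM (0 h), 179, 175 and 168 (3 h), 177, 169 and 172 (6 h), 243, 227 and 219 (9 h) and 195, 209 and 209 (12 h). All libraries at 9 h lay above those of 0 h, by 0.52 ± 0.06 in WT (adjusted p = 1.99e-07) and 0.53 ± 0.06 in KO (adjusted p = 1.4e-07, edgeR). Per kb of exon, Hk3 made up 51.7% ± 1.22 of the 3 hexokinases in WT at 0 h, 62.2% ± 0.208 at 9 h and 51.9% ± 1.91 at 12 h, while Hk2 made up 26.1% ± 0.129 at 9 h and 37.9% ± 1.28 at 12 h.

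**Figure D2:**
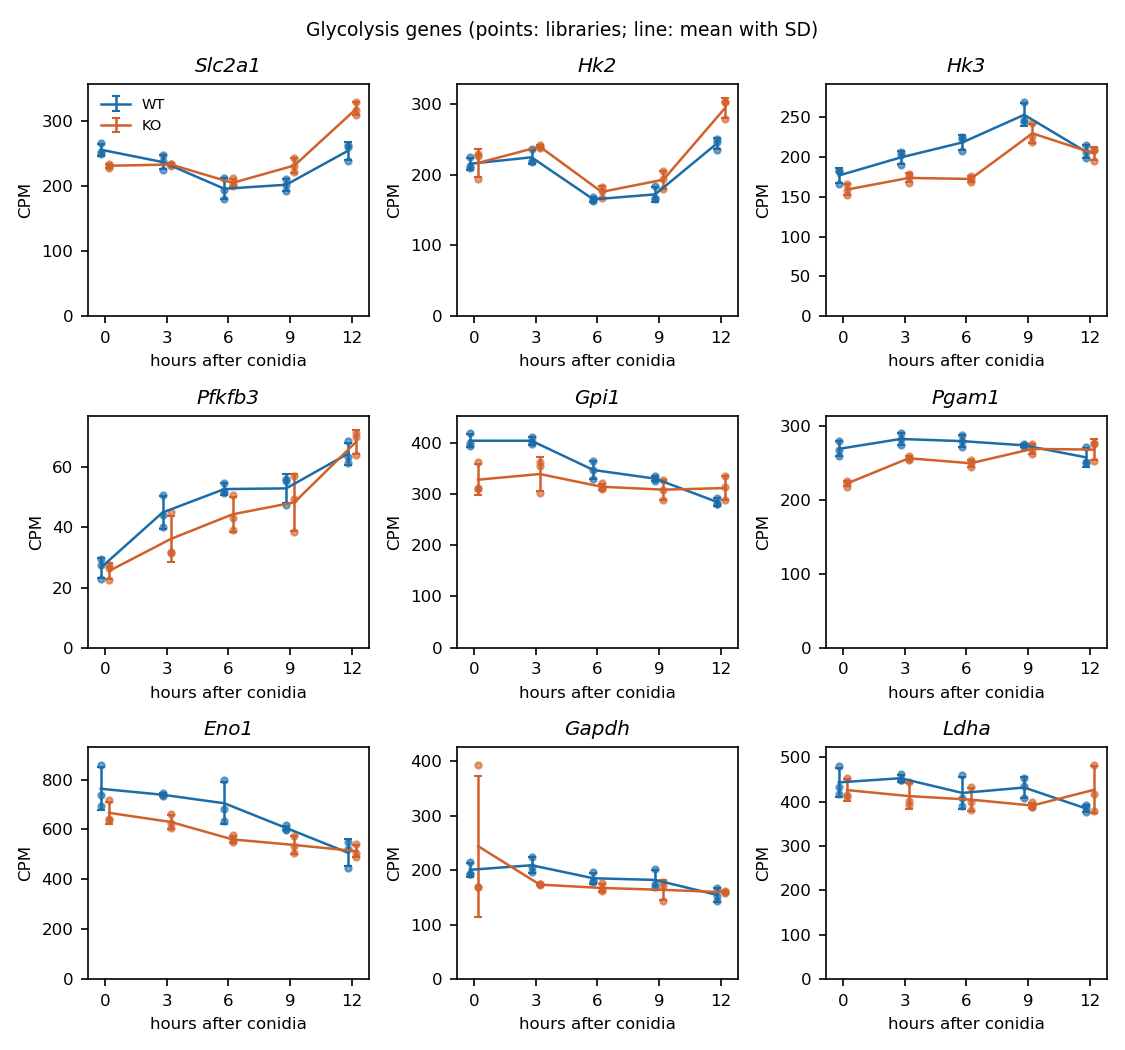
Level of 9 glycolysis genes in CPM against hours after the conidia, with a point for each library, a line through the group means and bars of 1 SD. Slc2a1 and Hk2 are lowest at 6 h and highest at 12 h in KO, Pfkfb3 climbs from 26.6 to 64.6 CPM in WT, and 1 KO library at 0 h stands apart for Gapdh.

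Of the genes in the middle and lower part of the pathway, Gpi1 (glucose 6-phosphate isomerase) and Eno1 (enolase) fell in WT. Gpi1 read 400.1, 419 and 395 CPM in WT (0 h), 399, 403 and 413 (3 h), 329, 347 and 366 (6 h), 329.5, 326 and 336 (9 h) and 293, 280.1 and 281 (12 h). KO values were 312, 364 and 309.6 CPM (0 h), 362, 355 and 302 (3 h), 322, 313 and 310.1 (6 h), 309, 328 and 289 (9 h) and 313, 335 and 288 (12 h). The WT libraries at 12 h lay below all 3 at 0 h, while the KO groups overlapped. The change at 12 h was -0.51 ± 0.07 in WT (adjusted p = 2.48e-06), with no call at any time in KO, and the interaction missed the threshold (adjusted p = 0.0727, edgeR).

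Eno1 read 693, 737 and 860.1 CPM in WT (0 h), 746, 740.0 and 733 (3 h), 798, 683 and 635 (6 h), 603, 598 and 617 (9 h) and 446, 551 and 523 (12 h). Its KO libraries read 718, 643 and 639.5 CPM (0 h), 624, 605 and 661 (3 h), 548, 556 and 576 (6 h), 575, 533 and 506 (9 h) and 492, 540.2 and 507 (12 h). The 12 h libraries lay below those of 0 h in both genotypes, with changes of -0.59 ± 0.08 in WT (adjusted p = 3.39e-06) and -0.38 ± 0.08 in KO (adjusted p = 0.00123, edgeR). Pgk1, phosphoglycerate kinase, fell in WT (-0.24 ± 0.05, adjusted p = 0.00122).

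Pgam1, phosphoglycerate mutase, started lower in KO and reached the WT level. The WT libraries read 259, 279 and 268 CPM (0 h), 274, 283 and 290.2 (3 h), 287, 271 and 279.8 (6 h), 274, 272 and 276 (9 h) and 272, 251 and 249 (12 h). The KO libraries read 223, 226 and 218 CPM (0 h), 253, 259 and 256 (3 h), 244, 254 and 250.3 (6 h), 276, 262 and 269 (9 h) and 277, 275 and 252 (12 h). The genotypes did not overlap at 0 h and overlapped at 12 h. Pgam1 rose at every later time in KO, by 0.27 ± 0.05 at 12 h (adjusted p = 8.68e-05), with no call in WT, and the interaction passed the threshold (adjusted p = 0.0336, edgeR). That call was lost in 17 of 30 fits without 1 library (largest adjusted p = 0.0957) and in DESeq2 (adjusted p = 0.104).

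The remaining glycolysis genes gave fewer calls. Aldoa, aldolase A, was not called over time in either genotype, and its levels are given with the genotype comparison. Ldha, the main lactate dehydrogenase subunit, read 433, 480.4 and 416 CPM in WT at 0 h and 392, 376 and 386 at 12 h, and 411, 414 and 454 and then 417, 379.8 and 483 CPM in KO. Its group means at 3, 6 and 9 h lay between 391 and 453 CPM in both genotypes. Ldha was called at no time, with log2 changes at 12 h of -0.20 ± 0.07 in WT (adjusted p = 0.0529) and 0.00 ± 0.07 in KO (adjusted p = 0.996, edgeR). Pfkl, the liver-type phosphofructokinase, fell at 9 h in WT (-0.52 ± 0.09) and rose from 9 to 12 h in WT (0.40 ± 0.09) and KO (0.42 ± 0.09). Ldhb rose at 9 h in WT (0.85 ± 0.27, adjusted p = 0.0458) from 6.57 ± 0.818 CPM. Pfkp, Pfkm, Pfkfb4, Aldoa, Tpi1, Pkm and Slc16a3, the lactate exporter MCT4, had no call against 0 h.

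The value of Gapdh in KO rested on 1 library. The WT libraries read 215, 193 and 193 CPM (0 h), 205, 197 and 225 (3 h), 196, 178 and 181 (6 h), 175, 202 and 168 (9 h) and 152, 168 and 143 (12 h). The KO libraries read 393, 169.8 and 169 CPM (0 h), 172, 174 and 174 (3 h), 176, 161 and 165 (6 h), 171, 143 and 178 (9 h) and 159, 158 and 161 (12 h). The first KO library at 0 h stands far above all others. The fall at 12 h in KO (-0.61 ± 0.20, adjusted p = 0.0427) became -0.10 with an adjusted p of 0.559 in edgeR when that library was left out.

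Several glycolysis genes have near-identical copies, so how reads were shared out is uncertain for them. Stretches of at least 100 bases at 95% identity or more linked Gapdh to 77 annotated pseudogenes, which held 309% of its own counts. The corresponding share of pseudogenes was 26.9% for Pgk1, 26.7% for Pgam1, 24.8% for Eno1, 6.84% for Pkm, 5.09% for Ldha and 4.23% for Gpi1. Near-identical genes of all types, pseudogenes and others, held more for some. They had 27691 counts beside 46992 for Eno1, 6364 beside 25597 for Gpi1 and 3117 beside 14385 for Pfkp. With the counts of all such copies added, the log2 ratio of mean CPM at 12 h to 0 h in WT went from -0.60 to -0.60 for Eno1 and from -0.52 to -0.45 for Gpi1. For Gapdh in KO it went from -0.62 to -0.21.

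Of the pentose phosphate genes, G6pdx, Pgd and Taldo1 rose to 9 h and then fell. At 9 h these 3 of 4 rose in both genotypes, with a median log2 change of 0.39 in WT and 0.26 in KO beside 0.01 and 0.00 over all genes tested. Among all genes, 5.57% were called higher at 9 h in WT and 5.86% in KO. From 9 to 12 h, 4 of 4 fell in WT and 3 of 4 in KO, with medians of -0.54 and -0.41 beside -0.01 and 0.00. Over that step 5.37% of all genes were called lower in WT and 1.84% in KO. With the small RNA share as a covariate, the falls of Pgd and G6pdx from 9 to 12 h in WT kept their calls (adjusted p = 0.00136 and 0.0334), those of Taldo1 and Tkt lost them (adjusted p = 0.527 and 0.838, edgeR), and the 3 in KO kept theirs. At 12 h against 0 h, 3 of 4 were lower in WT and 1 in KO, beside 8.47% and 6.58% of all genes. With the covariate the WT calls of Tkt, Pgd and G6pdx were lost (adjusted p = 0.0743, 0.122 and 0.541, edgeR) and the KO call, that of Tkt, held.

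G6pdx encodes glucose 6-phosphate dehydrogenase, which commits glucose 6-phosphate to the pathway and makes the first NADPH. The 250 bases before its RefSeq start (GRCm38.p6) are shown because it is the 1 pentose phosphate gene of 4 that holds TGACNNNGC, core letters of the antioxidant response element, on either strand. Capitals mark the match.
G6pdx, chrX:74428881-74429130, minus strand: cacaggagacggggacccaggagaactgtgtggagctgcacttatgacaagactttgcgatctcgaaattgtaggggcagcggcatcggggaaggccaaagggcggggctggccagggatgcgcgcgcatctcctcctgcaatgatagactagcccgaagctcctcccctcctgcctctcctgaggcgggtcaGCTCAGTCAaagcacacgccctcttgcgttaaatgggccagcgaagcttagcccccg

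The letters TGACNNNGC were found for 3 of 38 members (7.89%) and for 11.5% of all genes with an entry. G6pdx read 199, 186 and 193 CPM in WT (0 h), 190.0, 184 and 186 (3 h), 217, 191 and 209 (6 h), 251, 246 and 258 (9 h) and 168, 176 and 169 (12 h). The KO values were 197, 214 and 216 CPM (0 h), 195, 212 and 199.7 (3 h), 213, 223 and 216 (6 h), 238, 252 and 261 (9 h) and 190.5, 196 and 185 (12 h). The 9 h libraries were the highest in both genotypes. G6pdx rose at 9 h by 0.39 ± 0.05 in WT (adjusted p = 4.95e-06) and 0.26 ± 0.05 in KO (adjusted p = 0.000846), and fell from 9 to 12 h, with changes of -0.56 ± 0.05 (adjusted p = 7.69e-09) and -0.39 ± 0.05 (adjusted p = 6.28e-06, edgeR). A copy gene held 4192 counts beside its 15883.

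Pgd, the enzyme of the next NADPH-forming step, was already higher at 6 h in WT (0.24 ± 0.04, adjusted p = 0.000857) and KO (0.20 ± 0.04, adjusted p = 0.005, edgeR), where G6pdx was not called. Its mean was 494 ± 12.3 CPM in WT at 0 h, 478 ± 41.5 at 3 h, 582 ± 12.7 at 6 h, 653 ± 15.7 at 9 h and 411 ± 3.56 at 12 h. In KO the means were 486 ± 11.1, 487 ± 8.05, 558 ± 6.89, 620.4 ± 9.46 and 449 ± 16.4 CPM. From 9 to 12 h it fell, with changes of -0.67 ± 0.04 in WT (adjusted p = 1.94e-11) and -0.46 ± 0.04 in KO (adjusted p = 3.96e-08, edgeR). Taldo1, transaldolase of the non-oxidative branch, rose at 9 h by 0.39 ± 0.09 in WT and 0.27 ± 0.09 in KO and fell from 9 to 12 h, with changes of -0.52 ± 0.09 and -0.43 ± 0.09.

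Tkt, transketolase, did not share the rise. The WT libraries read 427, 441 and 465 CPM (0 h), 434, 451 and 420.2 (3 h), 403, 428 and 386 (6 h), 386, 400.4 and 403 (9 h) and 313, 314 and 300.1 (12 h). The KO libraries read 367, 405 and 412 CPM (0 h), 397, 404 and 378 (3 h), 351, 357 and 330.2 (6 h), 378, 319 and 365 (9 h) and 331, 309 and 319.9 (12 h). The 12 h libraries lay below those of 0 h in both genotypes, with changes of -0.52 ± 0.06 in WT (adjusted p = 1.08e-07) and -0.30 ± 0.06 in KO (adjusted p = 0.000387, edgeR).

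**Figure D3:**
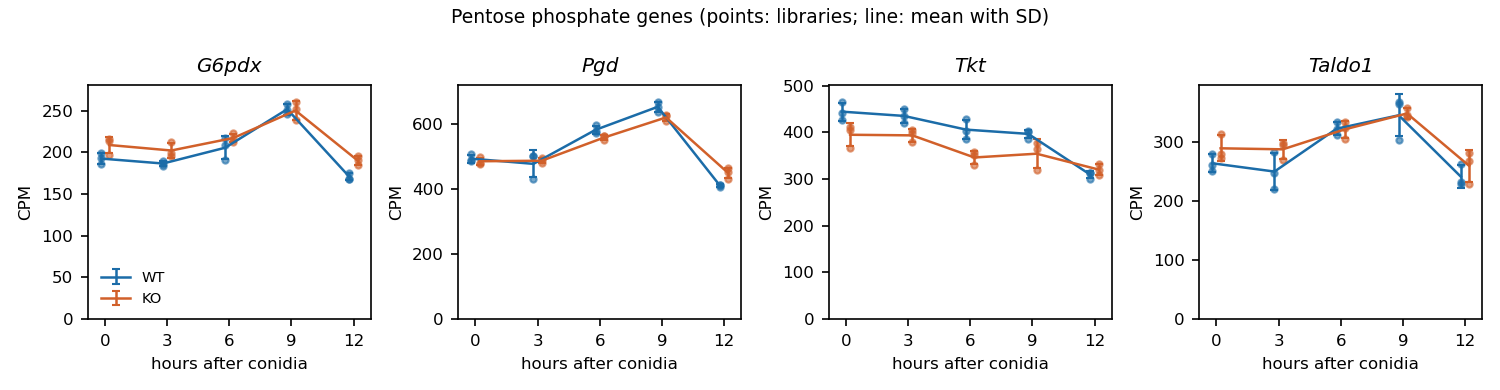
Level of the 4 pentose phosphate genes in CPM against hours after the conidia, with a point for each library, a line through the group means and bars of 1 SD. G6pdx, Pgd and Taldo1 peak at 9 h in both genotypes, Pgd at 653 CPM in WT, while Tkt declines to 309 CPM in WT at 12 h.

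Of the TCA set, Acod1 rose at every later time in both genotypes, Pcx rose from few counts at 9 h in WT and from 6 h on in KO, and each other member called at 12 h fell. At 12 h in WT 1 of 15 rose and 4 fell, with a median log2 change of -0.13 beside 0.00 over all genes tested. In KO 2 of 15 rose and 7 fell, with a median of -0.25 beside -0.01. Among all genes tested, 9.64% were called higher and 8.47% lower in WT, and 8.13% and 6.58% in KO. With the small RNA share as a covariate, 1 of the 5 WT calls held, that of Acod1, and 9 of 9 in KO. Acod1 encodes the enzyme that makes itaconate, a metabolite that inhibits succinate dehydrogenase and limits inflammation. Its upstream window is shown because Acod1 had the largest rise among the members with counts in every library, and capitals mark its single ACGTG match. The gene (ENSMUSG00000022126) spans chr14:103046977-103056573 on GRCm38.
Acod1, chr14:103046762-103047011, plus strand: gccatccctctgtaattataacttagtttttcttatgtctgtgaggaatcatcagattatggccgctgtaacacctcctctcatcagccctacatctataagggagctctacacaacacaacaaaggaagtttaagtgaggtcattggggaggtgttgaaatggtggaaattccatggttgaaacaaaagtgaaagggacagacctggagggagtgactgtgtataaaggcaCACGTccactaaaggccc

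The letters GGGANTTTC, a frequent form of the start of the NF-kappaB site, were searched too and were found for 0 of 38 members and 1.11% of all genes. Acod1 read 62.5, 58.7 and 69.7 CPM in WT (0 h), 109.5, 103 and 107 (3 h), 112, 99.8 and 106 (6 h), 172, 154 and 145 (9 h) and 282, 261 and 225 (12 h). In KO it read 98.6, 105 and 107 CPM (0 h), 145, 145 and 154 (3 h), 159.9, 160.5 and 183 (6 h), 264, 331 and 263 (9 h) and 477, 446 and 374 (12 h). No library at a later time overlapped those of 0 h, and at every time all KO libraries lay above all WT libraries. It rose by 2.01 ± 0.10 at 12 h in WT (adjusted p = 3.12e-14) and 2.06 ± 0.10 in KO (adjusted p = 8.95e-15, edgeR). The authors' deposited table listed Acod1 with log2 fold changes of 2.01 in WT and 2.06 in KO at 12 h.

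The 3 isocitrate dehydrogenase genes differed. Idh1 encodes the cytosolic NADP-dependent form, Idh2 its mitochondrial counterpart and Idh3a a subunit of the NAD-dependent enzyme of the cycle itself. Idh3a read 42.0, 39.4 and 50.2 CPM in WT (0 h), 39.2, 46.5 and 35.6 (3 h), 34.4, 40.3 and 36.3 (6 h), 33.5, 34.4 and 34.6 (9 h) and 31.0, 34.0 and 31.5 (12 h). The KO libraries had 54.6, 52.1 and 46.8 CPM (0 h), 50.9, 46.2 and 44.3 (3 h), 39.8, 43.6 and 34.7 (6 h), 40.4, 34.7 and 40.1 (9 h) and 37.5, 31.9 and 31.8 (12 h). It fell at 12 h, with changes of -0.45 ± 0.11 in WT (adjusted p = 0.00597) and -0.60 ± 0.11 in KO (adjusted p = 0.000406, edgeR).

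Idh2 read 44.9, 41.5 and 35.7 CPM in WT (0 h), 41.6, 43.8 and 45.5 (3 h), 37.4, 37.6 and 42.3 (6 h), 43.6, 43.8 and 42.7 (9 h) and 28.2, 30.02 and 31.5 (12 h). KO values were 37.5, 43.9 and 39.7 CPM (0 h), 42.8, 45.1 and 32.0 (3 h), 28.3, 39.8 and 35.9 (6 h), 38.3, 29.3 and 30.6 (9 h) and 24.4, 30.0 and 29.8 (12 h). The 12 h libraries were below those of 0 h in both genotypes, with changes of -0.45 ± 0.13 in WT (adjusted p = 0.0164) and -0.52 ± 0.14 in KO (adjusted p = 0.00834, edgeR), and these calls ended in 3 and 2 of 6 fits without 1 library.

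Idh1 was called higher in KO at 0 and 3 h but not at 6 h. With the small RNA covariate, Idh1 lost both calls. It read 238, 225 and 204 CPM in WT (0 h), 196, 221 and 191 (3 h), 229, 225 and 248 (6 h), 282, 254 and 248 (9 h) and 207, 246 and 231 (12 h). Its KO libraries read 266, 283 and 254 CPM (0 h), 254, 246 and 253 (3 h), 260.3, 268 and 271 (6 h), 247, 266 and 263 (9 h) and 194, 239 and 211 (12 h). The KO libraries lay above the WT libraries at 0, 3 and 6 h and overlapped them at 9 and 12 h. It fell at 12 h in KO (-0.32 ± 0.08, adjusted p = 0.00423) and rose at 9 h in WT (0.23 ± 0.07, adjusted p = 0.0446, edgeR).

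Fh1, fumarase, read 30.4, 24.3 and 26.1 CPM in WT (0 h), 27.5, 23.8 and 30.6 (3 h), 23.8, 25.8 and 26.6 (6 h), 23.1, 23.0 and 24.0 (9 h) and 21.6, 24.1 and 22.9 (12 h). The KO values were 29.5, 32.2 and 38.0 CPM (0 h), 26.9, 33.5 and 26.6 (3 h), 26.0, 28.9 and 23.8 (6 h), 21.5, 18.8 and 26.8 (9 h) and 22.2, 24.2 and 19.6 (12 h). Its KO libraries at 9 and 12 h lay below those of 0 h, with changes of -0.58 ± 0.14 (adjusted p = 0.00613) and -0.59 ± 0.14 (adjusted p = 0.00435, edgeR). Cs, citrate synthase, fell at 12 h (-0.27 ± 0.06 in WT and -0.25 ± 0.06 in KO), as did Mdh2, the mitochondrial malate dehydrogenase, with changes of -0.16 ± 0.06 and -0.22 ± 0.06. Suclg1, a subunit of succinyl-CoA ligase, fell in KO (-0.42 ± 0.13, adjusted p = 0.0285). The Mdh2 call in WT ended in 6 of 6 fits without 1 library, and that of Suclg1 in 4 of 6.

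**Figure D4:**
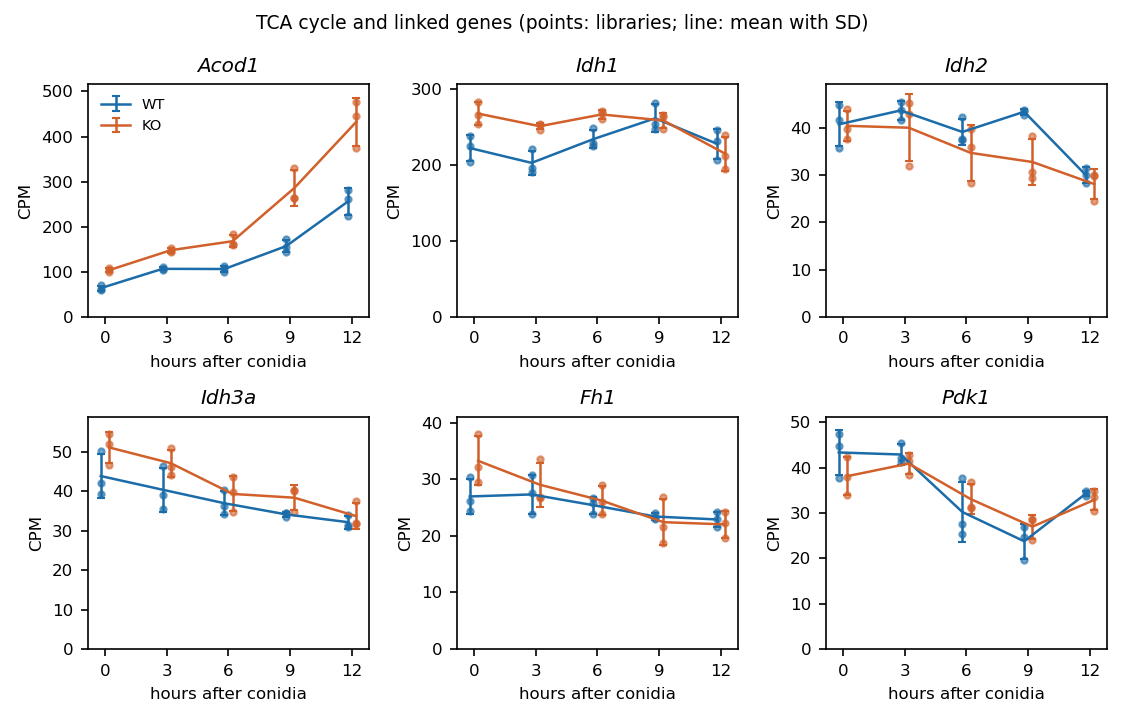
Level of 6 TCA cycle and linked genes in CPM against hours after the conidia, with a point for each library, a line through the group means and bars of 1 SD. Acod1 rises to 256 CPM in WT and 432 CPM in KO at 12 h, Idh3a declines to 32.2 and 33.7 CPM, and Pdk1 is lowest at 9 h.

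At the entry of pyruvate, Pdk1, the kinase that switches off pyruvate dehydrogenase, had 43.3 ± 4.98 CPM in WT at 0 h, 23.8 ± 3.80 at 9 h and 34.3 ± 0.533 at 12 h. It fell at 9 h, with changes of -0.87 ± 0.13 in WT (adjusted p = 4.54e-05) and -0.50 ± 0.14 in KO (adjusted p = 0.0166), and rose from 9 to 12 h in WT (0.53 ± 0.13, adjusted p = 0.00927, edgeR). The pyruvate dehydrogenase genes Pdha1, Pdhb and Dlat had no call over time. Mdh1 rose at 9 h in WT (0.42 ± 0.11, adjusted p = 0.0107), and Ogdh had no call over time.

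Pcx encodes pyruvate carboxylase, which refills the cycle with oxaloacetate, and was the member with the lowest counts. Summed over the 3 libraries, WT had 3 counts at 0 h, 0 at 3 h, 4 at 6 h, 41 at 9 h and 15 at 12 h, and KO had 0, 16, 32, 47 and 22. With 3 counts per group as the floor at 0 h, the observed KO level was at least 4.77-fold higher at 3 h and 11.8-fold at 6 h. At 9 and 12 h it was at least 13.4-fold and 6.77-fold higher. These bounds take the later counts as exact and leave out their counting error. In WT the ratio to 0 h was 11.1 at 9 h (95% exact interval 3.53 to 55.8) and 4.07 at 12 h (1.15 to 21.9). These intervals cover counting error only. In edgeR Pcx was called at 9 h in WT (adjusted p = 0.0146). In KO it was called at 6, 9 and 12 h (adjusted p = 0.00238, 0.000783 and 0.00533, edgeR) and not at 3 h.

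Between the genotypes, 14 of 39 members differed on average over the 5 times: 8 were higher in KO and 6 lower, where 12.6% of all genes were higher and 12.2% lower. The higher ones were Slc2a1, Hk2 and Pfkp of glycolysis, G6pdx, and Acod1, Idh1, Idh3a and Ogdh of the TCA set, and the lower ones Hk3, Gpi1, Aldoa, Pgam1, Eno1 and Tkt. The called TCA genes were all higher in KO. The differences were small except that of Acod1 (0.69 ± 0.04, adjusted p = 2.58e-12), the other called values running from -0.18 for Eno1 to 0.15 for Idh3a.

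The share of counts in small RNA genes nearly follows the genotype, so a fit with it as a covariate cannot tell them apart. In that edgeR fit 0 of 39 members were called on average over the times and 1 had an unadjusted p under 0.05, and the difference of Acod1 was 0.40 (adjusted p = 1). DESeq2 was run without the covariate only, and called 14. How many of all genes the covariate fit called is not given here, so its 0 is not read as a result about the members. At 12 h, where the shares of the genotypes lie closest, Acod1 kept its call with the covariate (0.68, adjusted p = 0.000691).

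**Figure D5:**
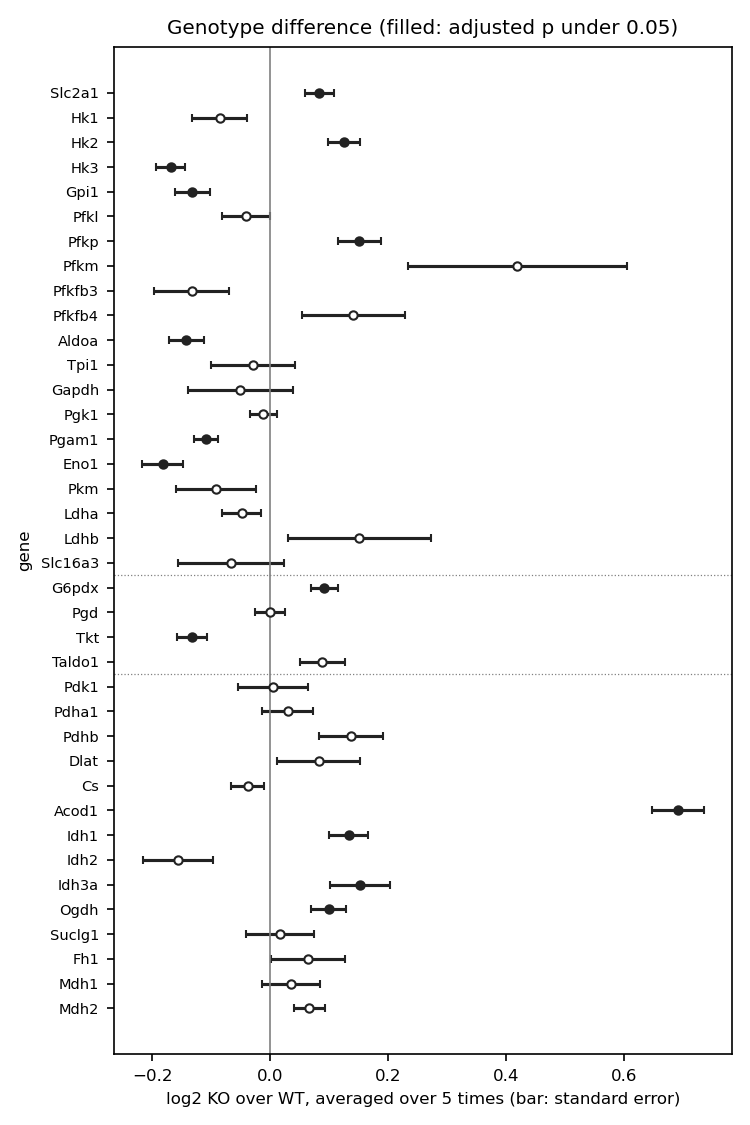
Fitted log2 difference of KO over WT averaged over the 5 times for 38 genes (Pcx left out), with bars of 1 standard error and filled points for an adjusted p under 0.05. Acod1 stands at 0.69, and all other filled points lie between -0.18 and 0.15.

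At single times the called members were few. At 0 h Acod1 and Idh1 were higher and Gpi1 and Pgam1 lower in KO, beside a background of 2.26% and 2.76%. At 3 h Acod1, Idh1 and Pcx were higher and Hk3, Gpi1 and Aldoa lower (3.02% and 3.90% of all genes). At 6 h Acod1 and Pcx were higher and Hk3, Pgam1, Eno1 and Tkt lower (2.42% and 3.36%). At 9 h the called members were Acod1 and Slc2a1, both higher (2.15% and 2.91%), and at 12 h Acod1, Slc2a1 and Hk2, all higher (1.23% and 0.678%). In fits without 1 library, the Pcx calls at 3 and 6 h each ended in 5 of 6. Those of Idh1 at 0 h, Hk3 at 3 h, Pgam1 at 6 h and Slc2a1 at 9 h each ended in 4. Those of Gpi1 at 0 and 3 h, Idh1 at 3 h and Tkt at 6 h ended in 2, and Eno1 at 6 h in 1. The Acod1 calls ended in 0 at each time. Acod1 was 0.70 ± 0.11, 0.47 ± 0.10, 0.66 ± 0.10, 0.87 ± 0.09 and 0.76 ± 0.09 higher in KO from 0 to 12 h on the log2 scale, and the authors' deposited tables listed it at 0, 6, 9 and 12 h. With the small RNA covariate the Acod1 calls at 0, 3, 6 and 9 h were lost, with differences of 0.39, 0.09, 0.32 and 0.51 and a lowest edgeR adjusted p of 0.993. For Slc2a1 and Hk2 the difference at 12 h was 0.33 ± 0.06 (adjusted p = 0.000801) and 0.27 ± 0.06 (adjusted p = 0.0125, edgeR). The Hk2 call ended in 4 of 6 fits without 1 library, and that of Slc2a1 in 0. With the small RNA covariate 1 of these 2 calls held.

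Aldoa read 574, 664 and 581 CPM in WT (0 h), 656, 642 and 685 (3 h), 567, 607 and 663 (6 h), 603, 628 and 649 (9 h) and 585, 532 and 567 (12 h). In KO it read 487, 538 and 549.8 CPM (0 h), 517, 549.6 and 526 (3 h), 550.0, 572 and 593 (6 h), 618, 547 and 557 (9 h) and 555, 544 and 632 (12 h). The genotypes did not overlap at 3 h, where KO was lower (-0.32 ± 0.07, adjusted p = 0.00279, edgeR). Only 2 of 39 members passed the interaction test, Slc2a1 and Pgam1, where 0.888% of all genes did.

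For related genes outside the set, the counts at 12 h stand beside 9.64% of all genes higher and 8.47% lower in WT, and 8.13% and 6.58% in KO. Of 25 further glycolysis genes 16 were tested, and at 12 h 2 rose and 2 fell in WT and 0 rose and 1 fell in KO, with Eno2 (2.63 ± 0.56), Adpgk (-0.72 ± 0.16), Aldoc (-0.63 ± 0.21) and Galm (0.46 ± 0.15) in WT and Tigar (-0.63 ± 0.15) in KO. Of 30 further TCA genes 28 were tested, and those that fell included Aco1 (-0.31 ± 0.09), Acly (-0.29 ± 0.07) and Glud1 (-0.23 ± 0.06) in WT, while 2 fell in KO (Me2, -0.66 ± 0.21, and Glud1, -0.40 ± 0.07). Of 9 further pentose phosphate genes 6 were tested, and Rpe rose (0.41 ± 0.12) and H6pd fell (-0.51 ± 0.18) in WT, and Rpia fell in KO (-0.58 ± 0.17).

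Among 22 regulators of these pathways 19 were tested. Hif1a, the oxygen-regulated activator of glycolysis genes, rose at 12 h in WT (343 ± 17.9 to 468 ± 19.3 CPM, 0.45 ± 0.08) and KO (430.5 ± 19.8 to 633 ± 47.4 CPM, 0.56 ± 0.08). It was higher in KO on average over the times (0.34 ± 0.04, adjusted p = 2.58e-08, edgeR). The value of this difference with the small RNA covariate, with which no member kept such a call, is not given here. Egln3, a prolyl hydroxylase that marks HIF-1alpha for destruction, rose by 1.40 ± 0.19 in WT and 2.35 ± 0.21 in KO. Its level went from 14.1 ± 1.47 to 37.5 ± 8.08 CPM in WT. In KO it started lower, at 7.64 ± 2.04 CPM, and reached 38.9 ± 4.01. Myc fell (-1.26 ± 0.16 in WT and -0.90 ± 0.17 in KO), and Nfe2l2, which encodes NRF2, rose by 0.68 ± 0.06 and 0.55 ± 0.06. Txnip, which restrains glucose uptake, was not called (-0.29 ± 0.17 in WT and -0.00 ± 0.18 in KO).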

How the data were processed

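RNA-seq count tables for 30 libraries of mouse bone marrow cells were used, in 10 groups of genotype and time with 3 libraries each. The deposited table gives whole-number counts per Ensembl gene, taken as the authors' raw counts from these values, since totals differ between libraries. The submitters' processing notes name DESeq2, StringTie, HISAT2 and Trimmomatic 0.35 with the build GRCm38. The annotation, the strand setting and the way counts were drawn are not stated there, so overlapping and antisense genes may share reads. The deposited tables of 13 comparisons give the authors' log2 fold changes and their p-values and adjusted p-values, per the file headers. All per-sample columns were used (0 left out).

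Gene names came from GENCODE M21, which holds 54495 of 54532 identifiers (37 do not match). Genes were kept with filterByExpr (minimum count 10), leaving 12393. In R 4.3.3, edgeR 4.0.16 fitted 1 mean per group over the 30 libraries together (TMM, robust quasi-likelihood). Later times were tested against 0 h, 12 h against 9 h, KO against WT at each time and on average, and the interaction by an F test, all two-sided, with Benjamini-Hochberg adjustment over all genes kept and a threshold of 0.05. At a median of 2492886 counts per library, small changes of genes at few counts were not detectable. Scripts were tested on simulated data. No libraries of a group agreed within sampling noise.

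The members and gene lists were chosen with earlier results of these data known. Every library was printed for members past the threshold in a comparison between genotypes or with an absolute log2 change of at least 0.5 at 12 h, up to 16 genes by size, and for Acod1, Slc2a1, Hk2, Ldha and G6pdx. Genes outside the set were named from the lists, up to 4 per list by size of change at 12 h, with Nlrx1, Hif1a, Myc and Txnip. A gene of the further TCA list is not reported here. Alternatives were DESeq2 1.42.0, RLE factors, no count filter, the compared groups alone, a replicate block, the small RNA share as a covariate, protein-coding genes only, and leaving out each library. Copies were found with blastn 2.17.0, and promoter windows came from RefSeq on GRCm38.p6, with 38 of 39 members matched. The 5 motifs and the windows printed were chosen after the values and matches had been seen, and windows of Pdk1, Pgd, Taldo1, Tkt and Eno1 were read and not printed.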

Additional observations from a re-analysis of the deposited data

Results flagged for a closer look

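The change of Slc2a1 from 0 h differed between KO and WT (edgeR F test of the interaction, adjusted p = 0.00908). The difference was 0.12, 0.21, 0.34 and 0.47 at 3, 6, 9 and 12 h on the log2 scale, and the call held in 30 of 30 fits without 1 library, with a largest adjusted p of 0.0368. With the small RNA share as a covariate the adjusted p was 0.0918.

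The change of Pgam1 from 0 h also differed between KO and WT (edgeR, adjusted p = 0.0336), by 0.14, 0.11, 0.25 and 0.33. The adjusted p was 0.327 with the small RNA share as a covariate. The part of the small RNA share in either result was not tested beyond this fit.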

How the results depend on the processing

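Of 70 calls of single members at 12 h or between genotypes, 68 held with RLE factors, 69 with protein-coding genes only, 59 of 69 in DESeq2, 36 of 52 with the compared groups alone, 37 without a count filter and 21 with the small RNA share as a covariate, and 42 held without any 1 library. The calls of Acod1, Pfkfb3, Slc2a1 and Hk2 at 12 h in KO, and of Acod1 and Pfkfb3 in WT, held in all 8 alternatives. With the small RNA covariate the average difference of Slc2a1 turned from 0.08 to -0.048. The cause was not tested, and in that fit the share and the genotype cannot be told apart.

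The replicate numbers in the labels did not pair the samples: deviations of same-numbered libraries had a median correlation of 0.010, with 20 of 135 pairs over 0.1, beside -0.009 and 39 of 270 for other numbers. With a replicate block, 69 of 70 calls held and 1 member in place of 2 passed the interaction test.

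Counts of members called moved by more than 1.5 times as follows. The shares of all genes called in these settings, and in the fits without 1 library, are not given here. Whether the shifts are particular to the members was not tested. With the compared groups alone they were 1 for WT at 3 h, 1, 3 and 9 for KO at 3, 6 and 9 h, 6 for KO from 9 to 12 h, and 1 between genotypes at 9 h and at 12 h. Without a count filter, which tests more genes, they were 5 and 8 for WT at 6 and 12 h, 1, 4 and 8 for KO at 3, 6 and 9 h, 6 for KO from 9 to 12 h, 2, 2, 1 and 1 between genotypes at 0, 3, 9 and 12 h, 9 on average and 0 for the interaction. DESeq2 gave 1 and 5 for KO at 3 and 6 h and 1 between genotypes at 9 h. The small RNA covariate gave 1 and 2 for WT at 3 and 12 h, 2 for WT from 9 to 12 h, 5 for KO at 6 h, and 0 between genotypes at 0, 3, 6 and 9 h, on average and for the interaction.

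Leaving out 1 library gave 1 to 2 for WT and for KO at 3 h, 6 to 9 for KO from 9 to 12 h, 2 to 4, 3 to 7, 3 to 5 and 1 to 4 between genotypes at 0, 3, 6 and 9 h, and 1 to 3 for the interaction. With the longest transcript as length, the share of Hk3 in WT at 0 h was 49.2% in place of 51.7%. Changes of members with few counts, such as Pcx, Pfkm and Ldhb, were limited by depth.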
